A study of Mus musculus with 16 samples.

Results

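Sertoli cells are the supporting cells of the testis cord, and the 8 genes described here act in their determination or mark their early work. They were chosen by name as Sox9, Sox8, Sox10, Amh, Dmrt1, Fgf9, Ptgds and Gdnf, and the values were those of every probe set that the platform annotation gives to these genes alone. That gave 14 of the 45101 probe sets on the array, 12 of which passed the filter on low values, and all 8 genes were among the 12336 genes tested. The study measured RNA of embryonic mouse gonads on Affymetrix Mouse430_2 arrays. At embryonic day 14.5 (E14.5) and at E12.5 the groups were Wnt4 knock-out testis, Wnt4 knock-out ovary, wild-type testis and wild-type ovary, abbreviated KO and WT, so 8 groups in all. Each group held 2 arrays, which the labels call biological replicates. The labels give neither the kind of Wnt4 allele, nor whether an array held 1 embryo or a pool, so the p-values measure the spread between these arrays, part of which may be technical. Samples of male embryos have a title that names an ovary and a source that names a testis, and they were read as testis. Wnt4 encodes a secreted signalling protein known for its part in ovary development, and the comparisons ask how the testis-side genes differ by sex, by genotype and by stage.

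In the male gonad of mice the transient factor Sry switches on Sox9 in the supporting cell precursors. Sox9 is then held up by the growth factor Fgf9 and by prostaglandin D2, which the enzyme made by Ptgds produces. The related factors Sox8 and Sox10 can act beside Sox9, and SOX9 with its partners turns on Amh, the hormone that removes the female duct. Dmrt1 keeps Sertoli cells from taking on ovarian identity and is also active in germ cells, and Gdnf is a secreted factor that Sertoli cells send to germ cells. In the ovary Wnt4, Rspo1 and beta-catenin act against this programme.

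Values are deposited intensities on a linear scale, where the median of all probe sets lay between 9.28 and 10.4 per array, so a value of about 10 or less is at the dim end of the array. Levels of different probe sets cannot be set against each other. Log2 changes are those of (intensity + 4), which understates the change of dim genes, and adjusted p comes from limma over all 12336 genes with a threshold of 0.05. Gonads are mixed tissue, so fewer cells of a type and less RNA per cell cannot be told apart. Mean intensity was 272 to 288 per array. Xist separated the sexes (5.92 to 1087 in testis arrays against 3654 to 5805 in ovary arrays), yet Y-linked RNA in ovary arrays and Xist in testis arrays showed RNA of the other sex. The share was 21.8% in WT ovary E12.5 replicate 1, 18.7% in KO ovary E12.5 replicate 2, 19.5% in WT ovary E14.5 replicate 2, 22.7% in WT testis E14.5 replicate 2 and 16.4% in KO testis E14.5 replicate 2, with 8.06% in WT ovary E12.5 replicate 2 and under 0.30% in the other arrays. Both WT testis E12.5 arrays were nearly identical, with an SD of 0.142 for their log2 difference over genes, against 0.335 to 0.587 in the other groups. Wnt4 in KO arrays was lower in ovary at E14.5 (351 and 302 against 1138 and 1151 in WT), while KO ovary E12.5 replicate 1 read 839 against 844 and 1822 in WT.

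The sex difference was the main pattern among the 8 genes. Gdnf and Ptgds were higher in every testis array than in every ovary array, whatever the genotype and stage, and so were Amh (the lowest testis array read 10.8 against 10.6 in the highest ovary array) and the main probe set of Sox9 (95.1 against 94.9). The other Sox9 sets overlapped, with 64.0 in the lowest testis array against 87.6 in the highest ovary array for the second, and 9.36 against 10.2 for the third. Of all genes tested, 0.738% had every testis array above every ovary array. Gdnf and Amh passed the filter on low values through testis arrays, as only 1 ovary array exceeded its median for each. In KO gonads at E14.5, 4 of the 8 genes were higher in testis than in ovary (Gdnf, Amh, Ptgds and Sox9), where 3.84% of all genes tested were called higher. In WT gonads at E14.5, 4 were higher in testis (Gdnf, Amh, Dmrt1 and Sox9), where 2.26% of all genes were. At E12.5 only Gdnf of the 8 passed, in KO, where 0.422% of all genes were called higher, and in WT, where 0.154% were. No member was called lower in testis in any of these 4 comparisons. The median log2 change of the 8 genes, testis over ovary, was 2.06 in KO and 1.88 in WT at E14.5, beside medians over all genes of 0.02 and -0.02. At E12.5 it was 1.16 in KO and 0.52 in WT, beside -0.05 and -0.11 over all genes. Leaving out the 5 arrays above 10% RNA of the other sex leaves 1 array in KO testis, WT testis and WT ovary at E14.5 and in KO ovary and WT ovary at E12.5. Tests without them, like those that leave out 1 array, take the spread of such a lone array from the other groups, so they assume that it varies as those do. The lone KO ovary array of E12.5 is replicate 1, which read 839 for Wnt4 and 131 for Sox10. That array also had the largest 3'/5' signal ratio of control genes (2.27). Without these 5 arrays, the counts past the threshold in either direction were 6 of 8 in KO and 7 of 8 in WT at E14.5, with 664 and 1311 genes called in all, and 6 and 3 of 8 at E12.5, with 3153 and 2965 genes called. Among these Fgf9 was lower in WT testis at E14.5 (log2 change -1.10, adjusted p = 0.0348) and Sox10 lower in KO testis at E12.5 (-1.83, adjusted p = 0.00250). With the WT testis E12.5 arrays averaged as 1 array, the E12.5 count in WT was 0.

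**Figure D1:**
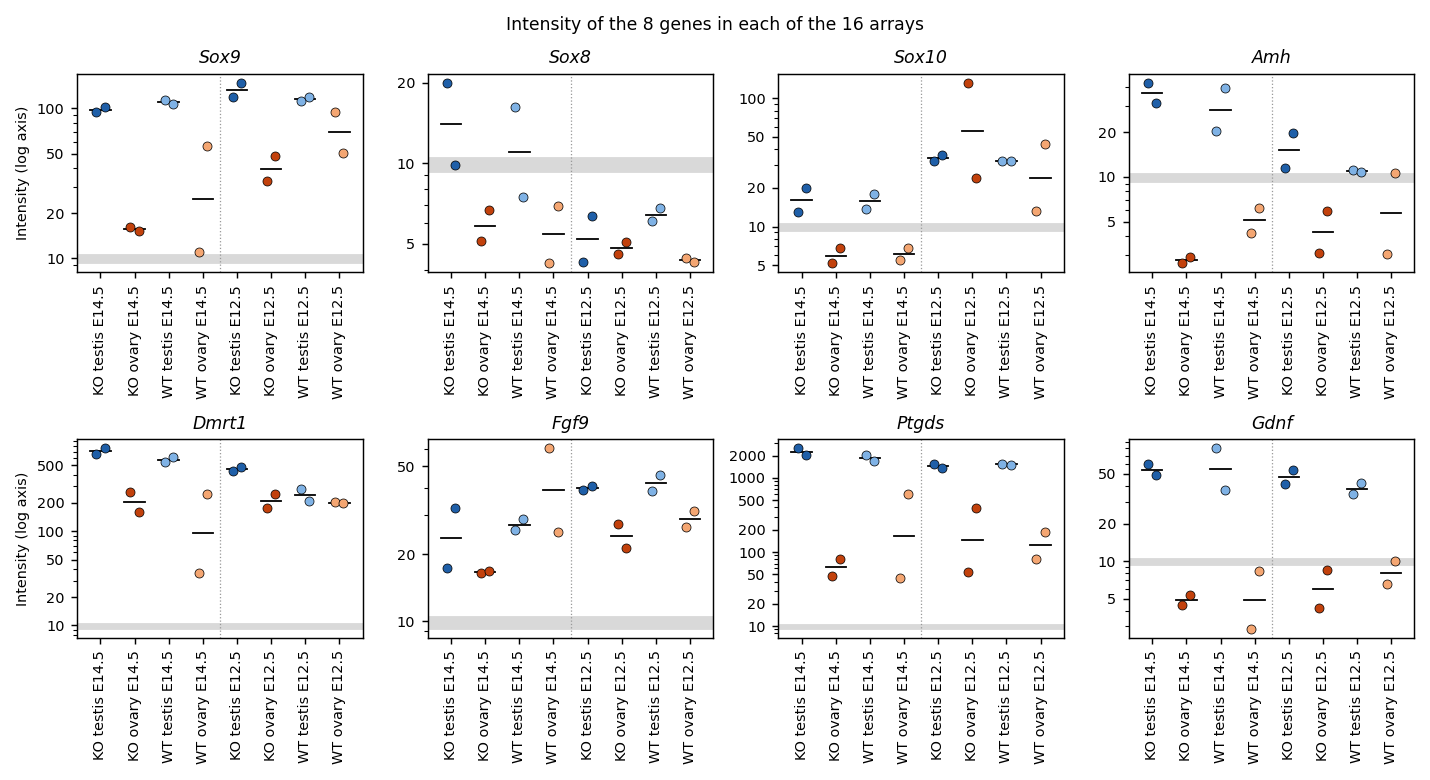
Intensity of each gene (its main probe set, log axis) in the 16 arrays, by group, with E14.5 left of the dotted line and E12.5 right of it; points are arrays in replicate order, black bars are geometric means of 2 arrays, and the grey band spans the array medians of 9.28 to 10.4. Ptgds and Gdnf show testis arrays above all ovary arrays in both genotypes, while Fgf9 and Sox10 show no such split.

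Sox9 encodes the transcription factor at the centre of Sertoli cell fate (GRCm38.p6, chr11:112782210-112787757). At E14.5 it read 95.1 and 101 in KO testis, 16.3 and 15.3 in KO ovary, 114 and 107 in WT testis, and 11.1 and 56.2 in WT ovary. The KO ovary arrays were close to each other, whereas the WT ovary arrays lay far apart, the higher one being that with 19.5% RNA of the other sex. At E12.5 it read 119 and 148 in KO testis, 32.6 and 48.3 in KO ovary, 112 and 118 in WT testis, and 94.9 and 50.6 in WT ovary. KO and WT testis arrays were close, and the highest ovary array, WT replicate 1, was the one with 21.8% RNA of the other sex. The second probe set gave the reverse order of these WT ovary arrays. It read 46.6 in replicate 1 and 87.6 in replicate 2, which held 8.06% RNA of the other sex. At E14.5 Sox9 was 5.17-fold higher in testis than in ovary in KO (log2 change 2.37, SE 0.48, adjusted p = 0.0102) and 3.79-fold higher in WT (1.92, adjusted p = 0.0435). The KO call was lost without any of its 4 arrays, with log2 changes of 2.33 to 2.42 and adjusted p of 0.0629 to 0.0817. The WT call was lost without WT ovary replicate 1 (0.92, adjusted p = 0.489), WT testis replicate 1 (1.88, adjusted p = 0.177) or WT testis replicate 2 (1.97, adjusted p = 0.176), and without WT ovary replicate 2 the change was 2.92 (7.58-fold, adjusted p = 0.000412). When every probe set was tested on its own, the main Sox9 set at E14.5 kept its call in KO (adjusted p = 0.0312) and lost it in WT (adjusted p = 0.105). In that fit the second set gave 2.53 in KO (adjusted p = 0.0119) and 2.29 in WT (adjusted p = 0.0302). The third read only 5.78 to 12.7 over all arrays, and its changes of 0.38 in KO and 0.22 in WT did not pass (adjusted p = 0.244 and 0.665).

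Sox8 and Sox10 are the other SOX group E factors, which back up Sox9 in the testis, and Sox10 is also a factor of neural crest and Schwann cells (GRCm38.p6, chr17:25565893-25570686 for Sox8 and chr15:79154913-79164490 for Sox10). Sox8 was dim: it read 19.9 and 9.87 in KO testis at E14.5, 5.12 and 6.68 in KO ovary, 16.3 and 7.47 in WT testis, and 4.23 and 6.94 in WT ovary. It passed the filter through 3 arrays, all of testis at E14.5, and at E12.5 it read 4.26 to 6.78 in all 8 arrays. Its log2 change, testis over ovary, was 0.89 in KO (adjusted p = 0.0866) and 0.68 in WT (adjusted p = 0.220) at E14.5, neither past the threshold. Sox10 read 12.96 and 19.96 in KO testis at E14.5, 5.19 and 6.76 in KO ovary, 13.6 and 18.1 in WT testis, and 5.50 and 6.86 in WT ovary. The log2 changes, testis over ovary, of 1.02 in KO and 0.96 in WT did not pass there (adjusted p = 0.400 and 0.456). At E12.5 Sox10 read 32.4 and 36.1 in KO testis, 131 and 23.9 in KO ovary, 32.4 and 32.6 in WT testis, and 13.1 and 44.05 in WT ovary. The single high array, KO ovary replicate 1, was also the array with the largest 3'/5' signal ratio of control genes (2.27, against 1.06 to 1.76 in the others). Without KO ovary replicate 2, Sox10 at E12.5 was lower in KO testis than in KO ovary (-1.83, adjusted p = 0.0291). The other 2 Sox10 probe sets read 2.87 to 11.2 and did not pass the filter. Of 8 Schwann and neural crest markers 5 were named on the array and 3 tested, while S100b and Foxd3 stayed at 5.77 or less in every array. The summed intensity of the 5 at E12.5 was 578 and 723 in KO ovary against 318 and 332 in WT ovary. It was 601 and 565 in KO testis and 456 and 575 in WT testis, where Sox10 read 32.4 to 36.1. Of the KO ovary arrays, replicate 1 had the higher Sox10 value and the lower sum. The part of such cells in the Sox10 values was not tested.

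Dmrt1 encodes a DM-domain transcription factor (GRCm38.p6, chr19:25505618-25604328). At E14.5 it read 654 and 758 in KO testis, 262 and 162 in KO ovary, 538 and 611 in WT testis, and 35.9 and 251 in WT ovary. WT ovary replicate 1 was the lowest of all 16 arrays. At E12.5 it read 440.3 and 481 in KO testis, 175 and 250.1 in KO ovary, 280.3 and 211 in WT testis, and 205 and 198 in WT ovary. WT testis and WT ovary were thus close at E12.5, and KO testis stood above both. In WT at E14.5 Dmrt1 was 5.72-fold higher in testis than in ovary (log2 change 2.52, SE 0.58, adjusted p = 0.0267). The call was lost without WT ovary replicate 1 (1.18, adjusted p = 0.131), WT testis replicate 1 (2.61, adjusted p = 0.115) or WT testis replicate 2 (2.43, adjusted p = 0.157), and without WT ovary replicate 2 the change was 3.85 (14.5-fold, adjusted p = 1.7e-05). In KO at E14.5 the change was 1.75 (adjusted p = 0.110), and at E12.5 it was 1.12 in KO and 0.27 in WT (adjusted p = 0.300 and 0.832), none past the threshold.

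Amh encodes anti-Müllerian hormone (GRCm38.p6, chr10:80805240-80807679). Its only probe set was dim, with 42.7 and 31.3 in KO testis at E14.5, 2.63 and 2.87 in KO ovary, 20.2 and 39.6 in WT testis, and 4.21 and 6.17 in WT ovary. At E12.5 it read 11.5 and 19.7 in KO testis, 3.06 and 5.90 in KO ovary, 11.1 and 10.8 in WT testis, and 3.03 and 10.6 in WT ovary. The 4 testis arrays of E14.5 and KO testis E12.5 replicate 2 were the highest, and the other values were near the array median or below it. Amh was above the array median in 9 arrays, of which only WT ovary E12.5 replicate 2 was of ovary. It thus passed the filter on low values through testis arrays, where it is high. At E14.5 Amh was 6.02-fold higher in testis than in ovary in KO (log2 change 2.59, SE 0.34, adjusted p = 0.000635), a call that stood without any single array. In WT it was 3.55-fold higher (1.83, SE 0.34, adjusted p = 0.00933), lost without WT ovary replicate 1 (1.68, adjusted p = 0.121) or WT testis replicate 2 (1.41, adjusted p = 0.109). These folds depend on the pseudocount: with 1 they were 10.03 in KO and 4.80 in WT, and with 16 they were 2.81 in KO and 2.12 in WT, all past the threshold. At E12.5 the changes of 1.20 in KO and 0.56 in WT did not pass (adjusted p = 0.110 and 0.412).

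Fgf9 encodes the growth factor that sustains Sox9 (GRCm38.p6, chr14:58070671-58112854). Its values were 17.4 and 32.5 in KO testis at E14.5, 16.6 and 16.9 in KO ovary, 25.9 and 28.8 in WT testis, and 60.0 and 25.1 in WT ovary. The highest of all 16 arrays in this main probe set was thus an ovary array, WT replicate 1, with under 0.30% RNA of the other sex. At E12.5 Fgf9 read 39.0 and 40.6 in KO testis, 27.5 and 21.5 in KO ovary, 38.5 and 45.5 in WT testis, and 26.6 and 31.2 in WT ovary. In the main set the log2 changes at E12.5, testis over ovary, were 0.63 in KO and 0.48 in WT and did not pass (adjusted p = 0.312 and 0.460). At E14.5 the changes were 0.43 in KO and -0.47 in WT (adjusted p = 0.580 and 0.556). The second probe set gave -0.09 in KO and -0.61 in WT at E14.5, also without a call. At E12.5 that set read 27.8 and 36.5 in WT testis against 20.9 and 28.3 in WT ovary, an overlap. Its highest array was WT testis E12.5 replicate 2. The promoter of a RefSeq start of Fgf9 on chromosome 14, chr14:58072436-58072735 on the plus strand (GRCm38.p6), is shown. It is that of a member not called between the sexes when group means were fitted to all arrays. Capitals mark TTATCT, the reverse complement of AGATAA, at 224 bases before the start.
Fgf9 promoter: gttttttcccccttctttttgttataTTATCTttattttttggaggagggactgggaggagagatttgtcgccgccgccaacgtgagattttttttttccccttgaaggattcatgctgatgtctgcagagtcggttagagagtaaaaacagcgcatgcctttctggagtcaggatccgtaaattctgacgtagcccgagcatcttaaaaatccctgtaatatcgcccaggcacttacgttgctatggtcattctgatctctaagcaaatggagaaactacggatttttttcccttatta
The 5 motifs searched, on both strands, were AGATAA (in 11.2% of 32851 mouse promoters of this length), TGATAA (9.05%), the SOX-type cores ACAAAG (18.7%) and ACAATG (12.6%), and AAGGTCA (4.72%), a core that Nr5a1 binds. Only AGATAA matched here, given as letters and not as a site in use.

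Gdnf encodes glial cell line-derived neurotrophic factor. At E14.5 it read 60.2 and 48.7 in KO testis, 4.42 and 5.40 in KO ovary, 79.9 and 36.9 in WT testis, and 2.88 and 8.39 in WT ovary. At E12.5 it read 41.5 and 53.9 in KO testis, 4.19 and 8.51 in KO ovary, 34.2 and 41.9 in WT testis, and 6.59 and 9.94 in WT ovary. The lowest testis array read 34.2 and the highest ovary array 9.94, and 7 of the 8 ovary arrays were below their array median, so ovary values are at the dim end of the array. Gdnf was the only one of the 8 genes called in all 4 testis to ovary comparisons. It was above the array median in 9 arrays, only 1 of them of ovary. It thus passed the filter on low values through testis arrays, where it is high. The log2 change, testis over ovary, was 2.71 (SE 0.35, 6.54-fold, adjusted p = 0.000538) in KO and 2.66 (SE 0.35, 6.34-fold, adjusted p = 0.00125) in WT at E14.5, and both calls stood without any single array of the comparison. With a pseudocount of 1 these folds were 9.37 in KO and 9.17 in WT, and with 16 they were 3.36 in KO and 3.32 in WT, all past the threshold. At E12.5 the change was 2.34 in KO (adjusted p = 0.00784), lost without KO ovary replicate 1 (2.04, adjusted p = 0.0910) or KO testis replicate 2 (2.17, adjusted p = 0.0765). In WT at E12.5 it was 1.79 (SE 0.35, adjusted p = 0.0414), and that call was lost without WT ovary replicate 2 (1.98, adjusted p = 0.167), WT testis replicate 1 (1.92, adjusted p = 0.276) or WT testis replicate 2 (1.65, adjusted p = 0.470).

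Gdnf lies on chromosome 15 (GRCm38.p6, chr15:7810048-7837580), and RefSeq gives it a pair of start sites. The promoter of the first, chr15:7809798-7810097 on the plus strand, is shown because Gdnf was called between the sexes in both genotypes and stages.
Gdnf promoter: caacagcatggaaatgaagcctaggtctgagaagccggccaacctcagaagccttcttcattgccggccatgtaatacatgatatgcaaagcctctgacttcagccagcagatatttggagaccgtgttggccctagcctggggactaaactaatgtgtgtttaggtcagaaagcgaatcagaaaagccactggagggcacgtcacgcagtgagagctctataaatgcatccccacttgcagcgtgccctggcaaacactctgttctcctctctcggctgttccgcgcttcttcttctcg
None of the 5 motifs was in this window, so it has no capitals, and the promoter of the second start holds AGATAA once, 84 bases before the start.

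Ptgds encodes lipocalin-type prostaglandin D synthase. It read 2506 and 2057 in KO testis at E14.5, 48.2 and 81.4 in KO ovary, 2016 and 1713 in WT testis, and 43.9 and 604 in WT ovary. Testis and ovary arrays did not overlap, and WT ovary replicate 2, an array with RNA of the other sex, stood far above the other 3 ovary arrays of that stage. At E12.5 Ptgds read 1560.0 and 1364 in KO testis, 53.0 and 389 in KO ovary, 1560.0 and 1514 in WT testis, and 80.7 and 187 in WT ovary. Again the high KO ovary array, replicate 2, was one with RNA of the other sex, and the part of that RNA in the Ptgds values was not tested. In KO at E14.5 Ptgds was 34.1-fold higher in testis than in ovary (log2 change 5.09, SE 0.95, adjusted p = 0.00569), and that call was lost without KO ovary replicate 1 (log2 change 4.73, adjusted p = 0.0644). In KO at E12.5 the log2 change, testis over ovary, was 3.29 (adjusted p = 0.110), and in WT it was 3.45 at E14.5 (adjusted p = 0.0629) and 3.60 at E12.5 (adjusted p = 0.121), none past the threshold. Without WT ovary E14.5 replicate 2 the WT change at E14.5 was 5.28 (38.9-fold, adjusted p = 0.00159), and without KO ovary E12.5 replicate 2 the KO change at E12.5 was 4.68 (adjusted p = 0.0174). The second Ptgds probe set gave the same order of group means at E14.5. It read 856 and 554 in KO testis, 8.24 and 12.4 in KO ovary, 677 and 511 in WT testis, and 6.53 and 151 in WT ovary. KO and WT testis arrays overlapped in that set but not in the main set.

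Ptgds lies on chromosome 2 (GRCm38.p6, chr2:25466709-25470110). Its promoter is shown because Ptgds had the largest log2 change of (intensity + 4) between testis and ovary of the 8 genes in all 4 comparisons of that kind, a rank on that scale, which compresses the changes of the dimmer Gdnf and Amh. The stretch is chr2:25469700-25469999 on the minus strand, 250 bases before to 50 after the start site, from RefSeq. Capitals mark CTTTGT, the reverse complement of ACAAAG, a core of the kind SOX factors bind, at 24 bases after the start.
Ptgds promoter: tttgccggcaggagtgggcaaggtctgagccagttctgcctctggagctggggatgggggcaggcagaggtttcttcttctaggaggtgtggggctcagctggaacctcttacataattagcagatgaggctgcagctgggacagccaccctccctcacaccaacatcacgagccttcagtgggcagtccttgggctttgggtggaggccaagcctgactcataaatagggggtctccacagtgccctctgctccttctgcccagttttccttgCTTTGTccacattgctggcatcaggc
Of 32851 mouse promoters of this length 18.7% hold ACAAAG on either strand, so 1 match is common, and it is given as letters only and not as a site in use. The other motifs had no match in this window.

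Wnt4 knock-out ovaries were set against wild-type ovaries to compare the testis-side genes when Wnt4 is disrupted. At E14.5, 0 of the 8 genes passed in limma, where 0.543% of all genes were called, with 1 at an unadjusted p below 0.05. At E12.5 again 0 of 8 passed, where 0.292% of all genes were called, with 0 at an unadjusted p below 0.05. The median log2 change of the members, KO over WT, was -0.25 at E14.5 and -0.08 at E12.5, beside -0.02 and 0.03 over all genes. Ptgds gave -1.35 (SE 0.95) at E14.5 and 0.23 at E12.5, Sox9 gave -0.61 (SE 0.48) and -0.75, Amh gave -0.44 (SE 0.34) and -0.28, and Gdnf gave -0.05 (SE 0.35) and -0.26. None of these passed. The values of KO and WT ovary arrays overlapped for Ptgds and Gdnf at both stages, for Sox9 at E14.5 and for Amh at E12.5. They were lower in KO without overlap for Sox9 (main probe set) at E12.5 and for Amh at E14.5. The share of all genes without overlap is not given for these comparisons. Between the stages 22.1% to 37.9% of all genes were lower without overlap, so such a split is common with 2 arrays a group. Intervals of this width leave room for changes in either direction, so equal levels are not shown. At E14.5 both KO ovary arrays had under 0.30% RNA of the other sex. There the percent of the mean of the 4 testis arrays was 2.32 and 3.93 for Ptgds, 7.83 and 9.57 for Gdnf, 15.6 and 14.7 for Sox9, and 40.9 and 25.3 for Dmrt1. Those of Gdnf rest on values of 4.42 and 5.40, at the dim end of the array.

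In the ovary at E14.5 the changes of Fgf9, the growth factor, Dmrt1 and other members depended on which WT array was used. For Ptgds, Sox9, Gdnf and Sox8 both KO arrays lay above WT replicate 1 and below WT replicate 2. Replicate 2 held 19.5% RNA of the other sex. Ptgds read 48.2 and 81.4 in KO against 43.9 and 604 in WT. Sox9 read 16.3 and 15.3 against 11.1 and 56.2, and Gdnf 4.42 and 5.40 against 2.88 and 8.39. The direction of their changes thus rested on the WT array. Fgf9 read 16.6 and 16.9 in KO against 60.0 and 25.1 in WT, a log2 change of -1.06 (SE 0.33) that did not pass (adjusted p = 0.333). Without WT ovary replicate 2 it was -1.63 (adjusted p = 0.0327), and without WT ovary replicate 1 it was -0.49 (adjusted p = 1.00). With the share of RNA of the other sex as a covariate the Fgf9 change was -1.32 (adjusted p = 0.0339), and the second probe set gave -0.57 without a call. Dmrt1 read 262 and 162 in KO against 35.9 and 251 in WT, an overlap, with a log2 change of 1.06 (SE 0.58, adjusted p = 1.00). Without WT ovary replicate 2 the Dmrt1 change was 2.39 (5.26-fold, adjusted p = 0.0035), and without WT ovary replicate 1 it was -0.28. At E12.5 the change of Sox10, 1.10 (SE 0.57, adjusted p = 0.669), became 2.24 (adjusted p = 0.0298) without KO ovary replicate 2. Leaving out the 5 arrays above 10% RNA of the other sex set 2 KO arrays against 1 WT array at E14.5. At E12.5 it set 1 against 1, and the spread came from other groups. The change, KO over WT, was then 2.39 for Dmrt1 and -1.63 for Fgf9 at E14.5, and 1.49 for Sox10 at E12.5. The lone KO array of E12.5 was replicate 1, with Sox10 at 131 against 23.9 in replicate 2. Its Wnt4 value was 839, against 844 and 1822 in WT ovary.

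**Figure D2:**
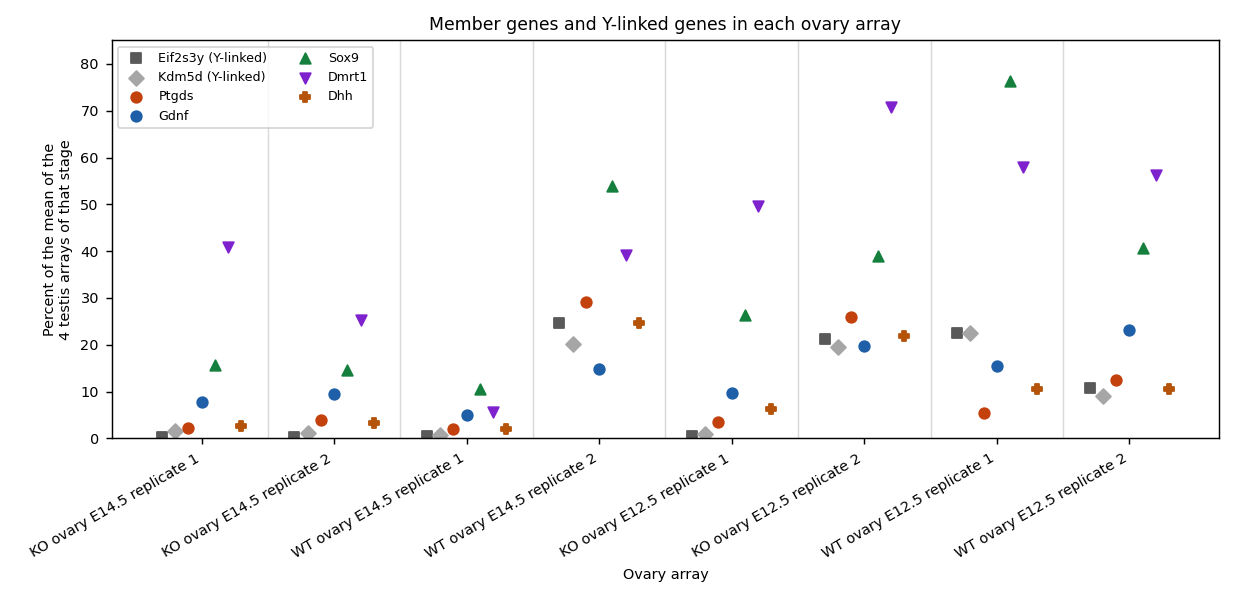
Percent of the mean of the 4 testis arrays of the same stage (vertical axis) in each of the 8 ovary arrays, for 4 of the member genes, for the Sertoli gene Dhh and for the Y-linked genes Eif2s3y and Kdm5d (squares and diamonds). In WT ovary E14.5 replicate 2, Ptgds (29.1%) and Dhh (24.7%) lie near Eif2s3y (24.7%), while Gdnf (14.9%) lies below it. Dmrt1 (39.2%) and the main probe set of Sox9 (53.9%) lie above it. The second Sox9 set, not drawn, read 24.4 in that array against 64.0 to 111 in the testis arrays of E14.5.

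The same percentages, each from the main probe set of a gene, set ovary arrays above 10% RNA of the other sex beside the rest. In WT ovary E14.5 replicate 2, Eif2s3y stood at 24.7% of the testis mean, and of the members Ptgds stood at 29.1%, Gdnf at 14.9%, Amh at 18.4%, Dmrt1 at 39.2% and Sox9 at 53.9%. In WT ovary E14.5 replicate 1, with Eif2s3y at 0.52%, Ptgds stood at 2.12%, Gdnf at 5.11%, Dmrt1 at 5.61% and Sox9 at 10.6%. At E12.5 KO ovary replicate 2 had Eif2s3y at 21.3% and Ptgds at 25.97%, against 0.45% and 3.53% in KO ovary replicate 1. In WT ovary E12.5 replicate 1, in contrast, Eif2s3y stood at 22.6% and Ptgds at 5.38%, while Sox9 stood at 76.4%. WT ovary E12.5 replicate 2 had Eif2s3y at 10.8%. Ptgds (12.5%), Gdnf (23.2%) and Amh (80.2%) were higher there than in replicate 1, where Gdnf stood at 15.4% and Amh at 22.8%. Sox9 (40.7%), Dmrt1 (56.2% against 58.0%) and Sox8 (72.6% against 75.1%) were lower than in replicate 1. Sox8 was below the array median in every E12.5 array, testis included, so its percentages are ratios of dim values. Gdnf and Amh read at most 9.94 and 10.6 in ovary arrays, near the array median or below it. Their percentages thus rest on dim values too. The second Sox9 set was higher in replicate 2 (87.6) than in replicate 1 (46.6). Ptgds and the Y-linked gene thus lay within a few percentage points of each other in 2 of the 3 ovary arrays above 10% RNA of the other sex, and not in the third. The origin of that RNA was not tested.

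Knock-out testes were set against wild-type testes. At E14.5, 0 of the 8 genes passed in limma, where 0.00811% of all genes were called, and at E12.5 0 of 8 passed, where 0.0405% were called. At an unadjusted p below 0.05 the count was 0 of 8 at both stages. The median log2 change, KO over WT, was 0.14 at E14.5 and 0.13 at E12.5, beside 0.03 and 0.10 over all genes. The largest change was that of Dmrt1 at E12.5, which read 440.3 and 481 in KO against 280.3 and 211 in WT. It was not past the threshold (log2 change 0.91, SE 0.58, adjusted p = 0.587). The summed intensity of 5 germ cell genes was also higher there, at 3573 and 3753 in KO testis against 1877 and 1790 in WT testis, and its part in the Dmrt1 values was not tested. Ptgds had log2 changes of 0.29 (SE 0.95) at E14.5 and -0.08 at E12.5, and Gdnf of -0.01 (SE 0.35) and 0.29. The differences between the KO effect in ovary and that in testis were tested as interactions, and 0 of 8 passed at either stage (0% and 0.113% of all genes were called, and 0 of 8 members at an unadjusted p below 0.05).

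Knock-out ovaries were also set against wild-type testes. At E14.5, 4 of the 8 genes were lower in KO ovary than in WT testis, where 3.06% of all genes were called lower, and at E12.5 2 were lower (Ptgds and Gdnf), where 2.11% were. The medians of the members were -1.86 at E14.5 and -0.77 at E12.5, beside -0.01 and 0.15 over all genes. At E14.5 Ptgds was 27.9-fold lower (log2 change -4.80, adjusted p = 0.00997), Gdnf 6.59-fold lower (-2.72, adjusted p = 0.000833), Sox9 5.78-fold lower (-2.53, adjusted p = 0.00853) and Amh 4.81-fold lower (-2.27, adjusted p = 0.00229). The Gdnf and Amh calls stood without any single array, whereas those of Sox9 and Ptgds were lost without any of the 4 arrays (adjusted p of 0.0554 to 0.0681 for Sox9, with changes of -2.57 to -2.49, and 0.0534 to 0.0925 for Ptgds, with changes of -5.16 to -4.45). At E12.5 Ptgds was lower by a log2 change of -3.36 (adjusted p = 0.0447) and Gdnf by -2.05 (adjusted p = 0.0142). Both calls were lost without KO ovary replicate 1 (-1.97 for Ptgds and -1.74 for Gdnf), WT testis replicate 1 (-3.34 and -2.18) or WT testis replicate 2 (-3.38 and -1.92), with adjusted p of 0.128 to 0.412. With the WT testis E12.5 arrays averaged as 1 array, 0 of the 8 passed at E12.5, and without the 5 arrays above 10% RNA of the other sex 1 KO ovary array was set against 2 WT testis arrays, and 4 genes were lower (Ptgds, Gdnf, Sox9 and Amh) and Sox10 was higher (1.89, adjusted p = 0.00153), with 4532 genes called in all. Without KO ovary E12.5 replicate 2, Sox10 was higher in KO ovary than in WT testis (1.89). Here and without the 5 arrays, the KO ovary array left was replicate 1. It read 131 for Sox10, against 23.9 in replicate 2. Dmrt1 in KO ovary was not called against WT testis at either stage (-1.46 with adjusted p = 0.200 at E14.5, and -0.21 with adjusted p = 0.827 at E12.5). These comparisons share their KO ovary and WT testis arrays with those above.

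**Figure D3:**
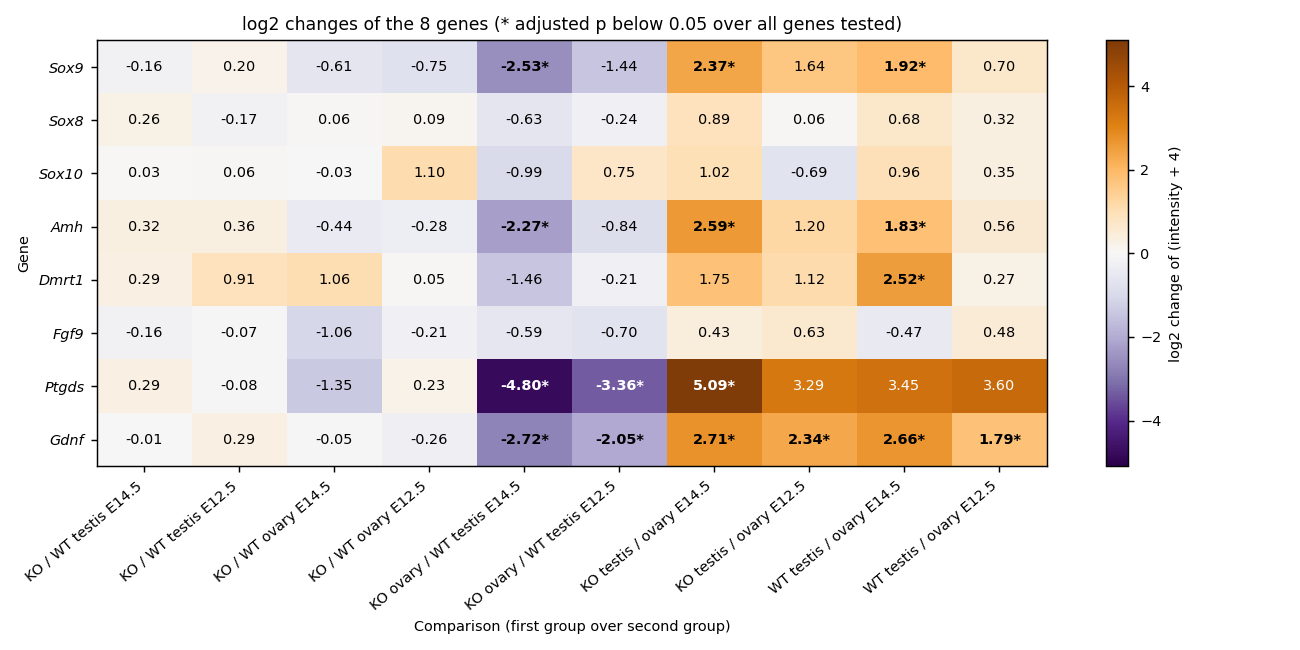
Log2 change of (intensity + 4) of the 8 genes (rows) in 10 comparisons (columns, first group over second), with the value printed in each cell, colour by value, and a star where the adjusted p over all 12336 genes was below 0.05. The 4 columns of KO over WT hold no star, and the columns of KO ovary over WT testis hold 4 at E14.5 and 2 at E12.5.

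The stages were then set against each other. In KO ovary 1 of 8 was lower at E14.5 than at E12.5, where 8.46% of all genes were called lower. This was Sox10, which read 5.19 and 6.76 at E14.5 against 131 and 23.9 at E12.5 (6.17-fold lower, log2 change -2.63, SE 0.57, adjusted p = 0.0104). The call was lost without KO ovary E12.5 replicate 1 (-1.49, adjusted p = 0.100), KO ovary E14.5 replicate 1 (-2.51, adjusted p = 0.0759) or KO ovary E14.5 replicate 2 (-2.74, adjusted p = 0.0543), and without KO ovary E12.5 replicate 2 the change was -3.77 (adjusted p = 0.000232). In KO testis, WT testis and WT ovary 0 of 8 passed in limma, where 4.04%, 10.6% and 4.36% of all genes were called, with 2, 1 and 2 members at an unadjusted p below 0.05. With 8 genes, counts of 0 or 1 cannot be told apart from these shares. Amh had a log2 change of 1.08 in KO testis (adjusted p = 0.113) and 1.12 in WT testis (adjusted p = 0.0547), E14.5 over E12.5. Sox10 was lower at E14.5 without overlap in all 4 gonad types, by -0.92 in KO testis, -0.89 in WT testis and -1.50 in WT ovary, none of these past the threshold. In WT ovary Sox10 passed without WT ovary E12.5 replicate 1 (-2.24, adjusted p = 0.0394), and without WT ovary E14.5 replicate 2 Sox9 (-2.29, adjusted p = 0.00284) and Dmrt1 (-2.36, adjusted p = 0.000843) passed. Lower values without overlap were seen in 26.0% of all genes in KO testis, 37.9% in KO ovary, 29.1% in WT testis and 22.1% in WT ovary. Dmrt1 had log2 changes of 1.22 in WT testis and -1.03 in WT ovary (adjusted p = 0.196 and 0.375). The difference between the sex effects at E14.5 and E12.5 in WT was 2.25 for Dmrt1 (SE 0.81, adjusted p = 0.192) and 1.27 for Amh (SE 0.49, adjusted p = 0.210), and 0 of 8 passed, where 0.154% of all genes were called. Without WT ovary E14.5 replicate 2, Dmrt1 (3.59, adjusted p = 0.000568) and Sox9 (2.23, adjusted p = 0.0240) passed that test, and without the 5 arrays above 10% RNA of the other sex 8 of 8 did, with 1 array left in 3 of the 4 groups, Fgf9 with a negative value (-1.48) and Ptgds with a positive one (2.39), beside 2183 genes in all. The KO effect at E14.5 minus that at E12.5 was called for 0 of 8 in ovary and 0 of 8 in testis (0% and 0.00811% of all genes, and 0 members at an unadjusted p below 0.05).

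Other genes of the same and the opposing programme were read from fixed lists. Of 14 further Sertoli genes 13 were tested, and at E14.5 11 were higher in testis than in ovary in KO and 8 in WT, with median log2 changes of 2.13 and 2.18. Among them were Dhh, the hedgehog ligand of Sertoli cells (601.7 to 614 in KO testis, 16.4 to 19.2 in KO ovary, 552 to 630.0 in WT testis, 11.8 to 148 in WT ovary), and Inhbb, an activin and inhibin subunit. At E12.5 the counts were 2 in KO (Vnn1 and Aard) and 1 in WT (Vnn1, which encodes the pantetheinase vanin-1). Between KO and WT 0 of these 13 passed in either sex or stage, with 1 to 3 at an unadjusted p below 0.05. Of 10 ovarian factors that oppose the programme, 2 were lower in KO than in WT ovary at E14.5. Irx5, a homeobox gene, read 5.198 to 7.08 in KO against 40.5 to 75.1 in WT (5.88-fold lower, adjusted p = 0.00235), and the transcription factor gene Runx1 was 2.78-fold lower (adjusted p = 0.00238). At E12.5 1 was lower, Fst, the gene of the activin antagonist follistatin, which was 10.2-fold lower (adjusted p = 0.0274). Foxl2, the ovarian factor that acts against Sox9, read 176 to 193 in KO ovary at E14.5 against 184 to 437 in WT ovary, without a call.

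Receptors of the secreted members were read too, 8 of 11 being tested. Gfra1, which encodes the receptor that binds GDNF, was 2.78-fold lower in KO than in WT ovary at E14.5 (5.88 to 7.79 against 23.2 to 29.0, log2 change -1.47, adjusted p = 0.0077), and no other receptor was called between KO and WT. Ret, the kinase partner of Gfra1, was 2.69-fold higher in testis than in ovary in KO at E14.5 (adjusted p = 0.0116) and 3.02-fold lower in testis in KO at E12.5 (adjusted p = 0.0213). Amhr2, the receptor gene for anti-Müllerian hormone, was 2.70-fold lower in testis than in ovary in WT at E14.5 (adjusted p = 0.00966). Of 17 upstream factors and cofactors 15 were tested, and Sry was below the filter, at 5.33 to 7.36 in all arrays of both sexes. Of these 15, 3 were higher in testis in KO at E14.5 (Cited2, Six4 and Nr5a1), and in WT at E14.5 1 was higher (Six4) and 2 lower (Emx2 and Nr0b1). Between KO and WT only Zfpm2, the cofactor gene of Gata4, was called, higher in KO testis at E12.5 (1.87-fold, adjusted p = 0.0491).

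Marker genes of other gonadal cells moved with some of the same comparisons. The summed intensity of 4 fetal Leydig genes was 12411 and 8984 in KO testis at E14.5, 490 and 695 in KO ovary, 9700.3 and 6969 in WT testis, and 134 and 3357 in WT ovary. WT ovary replicate 2 was the high one again. The sum of 5 germ cell genes was 5106 and 6586 in KO testis at E14.5, 6615 and 5121 in KO ovary, 4267 and 5743 in WT testis, and 4030 and 4518 in WT ovary. Both WT ovary sums lay below those of KO ovary and of KO testis, while WT testis overlapped with every other group. At E12.5 the germ cell sum was 3573 and 3753 in KO testis, 1803 and 2610 in KO ovary, 1877 and 1790 in WT testis, and 2293 and 2370 in WT ovary, so KO testis stood above the rest, as it did for Dmrt1. None of the 5 germ cell genes was called between KO and WT testis at E12.5, with 2 at an unadjusted p below 0.05. The Leydig sum at E12.5 was 1085 and 584 in KO ovary against 146 in each WT ovary array, and none of its 4 genes was called there (2 at an unadjusted p below 0.05). The summed intensity of 6 mesonephros and kidney genes was 147 and 169 in KO ovary at E14.5 against 489 and 419.9 in WT ovary. Of its 5 tested genes, Calb1 (log2 change -3.57, adjusted p = 0.00238) and Pax8 (-1.05, adjusted p = 0.00873) were lower in KO ovary there, and both were lower in WT testis than in WT ovary at E14.5. The sum of 4 endothelial genes was 558 to 976 at E14.5. The part of these cell types in the members' values was not tested.

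Over the 16 arrays the 8 genes did not share one pattern. The correlation of each with the mean of all 8 (log2 scale, each centred) was 0.96 for Gdnf, 0.96 for Ptgds, 0.91 for Sox9, 0.88 for Amh, 0.83 for Dmrt1, 0.59 for Sox8, 0.34 for Sox10 and 0.17 for Fgf9, as a description over arrays that share groups, and each gene is part of the mean. Outside the list, the genes most like that mean were Dhh (r = 0.98), Mmd2 (0.98) and Tmem184a (0.98), followed by Prokr2, Tesc, Trim47, Kcnh1, Ptk2b, Dtna and Ppp1r16b (0.96 to 0.97). Ptgds was closest to Tesc (0.98), Dhh (0.98) and Aard (0.97), and Gdnf to Cstdc1 (0.96), Tesc (0.96) and Tmem184a (0.96). Sox9 was closest to the Y-linked genes Kdm5d (0.96) and Eif2s3y (0.95) and to the collagen gene Col9a3 (0.94). Dmrt1 was closest to Dppa4 (0.94), Fam169a (0.94) and the pluripotency factor gene Pou5f1 (0.93). The nearest gene to Amh was Zbed5 (0.95), to Sox10 Mical1 (0.95), to Sox8 Mybpc3 (0.92) and to Fgf9 Bbs4 (0.84), the weakest of the 8 nearest.

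Where a gene had several probe sets, they mostly gave the same direction on different scales. The Ptgds sets differed in level but split testis and ovary arrays alike. With every set tested on its own, both bright Sox9 sets were called higher in testis in KO at E14.5, while in WT the second set was called and the main set was not (adjusted p = 0.0302 and 0.105). At E12.5 the bright sets differed for KO against WT ovary, with -0.75 in the main set and -0.03 in the second, neither called. In KO ovary the second Sox9 set was lower at E14.5 than at E12.5 (6.24 and 15.9 against 70.3 and 56.0, log2 change -2.23, adjusted p = 0.0157 when every set was tested on its own), whereas the main set gave -1.15 (adjusted p = 0.122). When group means were fitted to all 16 arrays, no set of Fgf9 or Sox10 was called between the sexes.

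**Figure D4:**
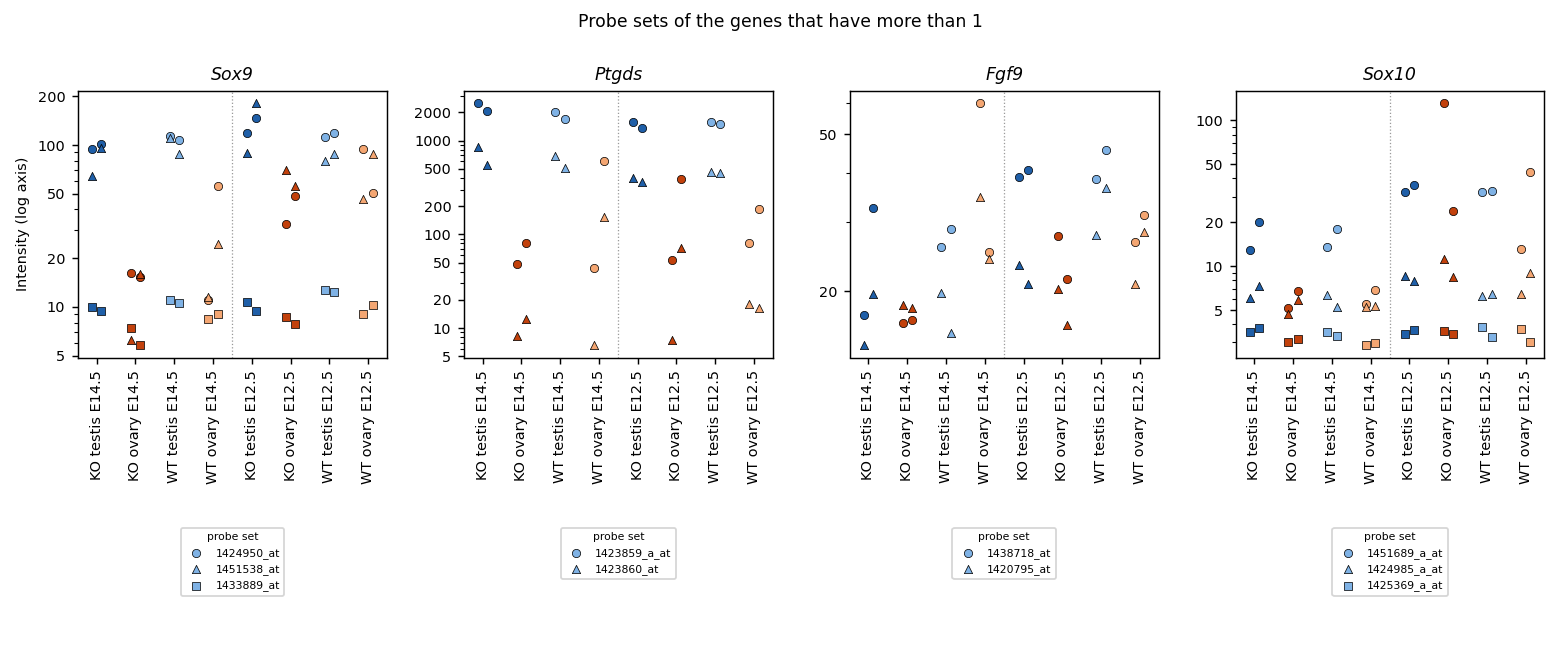
Intensity (log axis) of every probe set of the 4 genes with more than 1, in the 16 arrays by group, with E14.5 left of the dotted line; marker shapes are probe sets and colours are groups. The 2 Ptgds sets and the 2 bright Sox9 sets separate testis from ovary at E14.5, and the third Sox9 set and 2 of the Sox10 sets stay near 10 or less.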

How the data were processed

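Values were probe-set intensities of 16 arrays as deposited by the authors, on a linear scale. Per the submitters' processing notes they were made with MAS5, and neither version nor scaling target is given in the sources used here. The unit of analysis was log2(intensity + 4), where 4 is the rounded median of the arrays' 20th percentiles. Of 45101 probe sets, 64 controls were left out and 25620 were kept that exceeded their array's median on 2 or more arrays. Symbols came from the platform annotation of 2016, updated by Entrez number, and a gene's probe set was that with the highest mean. All arrays were fitted with group means in limma 3.58.1 (R 4.3.3, 8 residual and 5.29 prior degrees of freedom), two-sided, with Benjamini-Hochberg adjustment. Tested on simulated data, the procedure was run for WT testis against ovary at E14.5 with 12336 genes, where 51 of 100 genes changed 2-fold and 84 of 100 changed 4-fold were recovered. The members and lists were chosen with earlier results of these data known. Named genes outside the 8 followed a fixed rule: list members past the threshold, at most 6 per list and comparison by smallest p, and the highest correlations (3 per member, 10 for the mean). Genes named without passing were chosen after their values were seen. RNA of the other sex was estimated from Eif2s3y, Kdm5d and Uty, or Xist. Alternatives changed the pseudocount, filter, normalization, variance model, array weights, samples fitted, replicate block, probe set rule and arrays used. Figures were drawn in Python 3.11.15.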

Additional observations from a re-analysis of the deposited data

How the results depend on the processing

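Counts are of the 8 genes past the threshold. A filter that asks for values above the median in all arrays leaves only Sox9, Dmrt1, Fgf9 and Ptgds to test. Gdnf, Amh, Sox8 and Sox10 are not tested under it, so counts can fall there because genes were removed. Genes not tested under an alternative are in neither the kept nor the ended calls. With 2 arrays a group, single arrays decide much: of 17 called member results, leaving out 1 array kept the call in 33 fits and ended it in 35, and the other alternatives kept it in 201 and ended it in 27, and none turned a called direction. Leaving out 1 array gave, for testis over ovary, 0 to 3 in KO and 0 to 1 in WT at E12.5, and 2 to 4 in KO and 1 to 5 in WT at E14.5. It gave 0 to 1 at E12.5 and 0 to 2 at E14.5 for KO over WT ovary, and 0 to 3 at E12.5 and 2 at E14.5 for KO ovary over WT testis. Between stages it gave 0 to 1 in KO testis, KO ovary and WT testis and 0 to 2 in WT ovary, and 0 to 2 for the WT sex effect between stages. WT testis over ovary at E12.5 fell to 0 with a pseudocount of 1 or 16, the filter in all arrays, quantile normalization, no variance trend, only its own arrays, the replicate block, the mean of probe sets, every probe set, or the averaged WT testis arrays; at E14.5 it was 1 with the filter in all arrays and 0 with only its own arrays. KO testis over ovary was 0 at E12.5 under both of these and 2 at E14.5 with that filter. KO ovary over WT testis at E12.5 was 1 with that filter, no trend, the mean of sets or every set, and 0 with only its own arrays or the averaged arrays; at E14.5 it was 2 with that filter. Between stages WT testis gave 1 with a pseudocount of 16 or the block and 3 with array weights or only its own arrays, KO testis 1 with array weights, WT ovary 1 with the mean of sets, and KO ovary 0 with that filter or only its own arrays and 2 with the mean of sets or every set. Without the arrays above 10% RNA of the other sex, with 1 array left in 5 of the 8 groups, the counts were 6 and 3 at E12.5 and 7 in WT at E14.5 for testis over ovary, 1 and 2 for KO over WT ovary, 5 for KO ovary over WT testis at E12.5, 4, 2, 3 and 5 between stages in KO testis, KO ovary, WT testis and WT ovary, and 8 for the WT sex effect between stages. With that share as a covariate they were 3 in KO and 2 in WT at E12.5, 1 for KO over WT ovary at E14.5, and 1 between stages in KO testis, WT testis and WT ovary. The replicate numbers are not known to pair the arrays: correlations of same-numbered deviations ran from -0.656 to 0.581, and the replicate block gave 0 and 5 for WT testis over ovary at E12.5 and E14.5 and 1 for WT testis between stages, and changed no other count of the 8 genes by over 1.5 times. Crossed numbers, added after seeing the data, gave 4 for WT testis over ovary at E14.5, 0 for KO over WT ovary at both stages, and 1 in KO ovary and 0 in WT ovary between stages. Counts over all genes, lowest to highest over the alternatives, were 311 to 1414 (658 as reported) in KO and 0 to 1311 (473) in WT for testis over ovary at E14.5, 1 to 3153 (141) in KO and 12 to 2965 (75) in WT at E12.5, 5 to 281 (67) at E14.5 and 0 to 102 (36) at E12.5 for KO over WT ovary, 0 to 3 (1) at E14.5 and 0 to 365 (5) at E12.5 for KO over WT testis, and 293 to 1082 (588) at E14.5 and 1 to 4532 (1112) at E12.5 for KO ovary over WT testis. Between stages they were 227 to 824 (498) in KO testis, 705 to 4444 (1701) in KO ovary, 302 to 3940 (1306) in WT testis and 116 to 2160 (538) in WT ovary, and for the WT sex effect between stages 0 to 2183 (19). The cause of these shifts was not tested. Dim signal limits Amh, Gdnf and Sox8, and the number of arrays limits precision.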
